A study of Mus musculus with 10 samples.

Results

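The genes described here encode the subunits of mitochondrial respiratory complexes I to IV and of ATP synthase (complex V). They were chosen by symbol among protein-coding genes: those of the mitochondrial chromosome whose names begin mt-Nd, mt-Co, mt-Cytb or mt-Atp, and the nuclear Nduf, Sdh, Uqcr, Cox4 to Cox8 and Atp5 genes. Of 49315 genes in the count tables, 97 matched, and 4 of them (Ndufa4l2, Cox7b2, Cox8b and Cox8c) stayed under 1 CPM (counts scaled to a fixed library total) in all 10 libraries and were left out. The remaining 93 comprised 13 mitochondrially encoded and 80 nuclear genes. The mitochondrial genes gave 7 subunits of complex I, 1 of complex III, 3 of complex IV and 2 of complex V. The nuclear genes gave 36, 8, 15 and 17 for the same complexes and all 4 subunits of complex II, which has no mitochondrially encoded subunit. The name rule does not take Ndufab1, Cyc1 or Cycs, and it places Ndufa4, now usually assigned to complex IV, with complex I.

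The respiratory chain passes electrons from NADH and succinate to oxygen and pumps protons across the inner mitochondrial membrane. ATP synthase uses the resulting gradient to make ATP. Its subunits come from separate genomes: a small set, transcribed from the mitochondrial chromosome as long polycistronic RNAs, and a much larger set transcribed in the nucleus, translated in the cytosol and imported. In microglia, brain-resident macrophages, the balance of oxidative phosphorylation and glycolysis is known to shift with activation.

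RNA had been sequenced from microglia sorted by surface CD11c, the integrin chain encoded by Itgax, out of the brain of wild-type C57BL/6 mice with no treatment named. Each subset gave 3 libraries on postnatal day 5, written P5, and 2 at 9 months of age. The 9-month libraries were made with SMART-Seq v4, a kit for small amounts of RNA, and the others by standard Illumina methods, so that age and library preparation cannot be told apart within a subset. The labels name no animals, pools or sexes, and the p-values therefore reflect sample-to-sample spread that could be purely technical.

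Libraries held 11892082 to 25483573 counts, apart from P5 CD11c+ replicate 2 with 2619610. Across genes its correlation to any other P5 library was 0.719 to 0.771, against 0.963 to 0.995 among those 5. Its Itgax level of 49.2 CPM lay within the 29.3 to 61.9 CPM of the P5 CD11c- libraries, whereas the other 2 P5 CD11c+ libraries had 250.2 and 145 CPM. At 9 months Itgax was 28.0 and 20.7 CPM in CD11c+ against 5.80 and 3.21 CPM in CD11c- libraries. All 30 homeostatic microglia markers, among them P2ry12 and Tmem119, were detected in every library. P5 results are given with and without replicate 2 of the CD11c+ group wherever it decides them.

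At P5 every one of the 13 mitochondrially encoded transcripts was lower in each CD11c+ library than in any CD11c- library, by a median of 3.40 log2 units. Of all 15410 genes tested, 8.68% were so placed, and the median of all was 0.06. Levels here are CPM scaled by trimmed means of M-values (TMM) within an age. mt-Co1 (ENSMUSG00000064351, MT, 5328 to 6872), the catalytic subunit of cytochrome c oxidase, stood at 9396, 1721 and 10730 TMM-scaled CPM in CD11c+ and at 26636, 92797 and 138048 in CD11c- libraries. Replicate 2 of the CD11c+ group was the lowest, and the CD11c- libraries differed from each other by more than the gap between the groups. mt-Cytb (MT, 14145 to 15288), the cytochrome b of complex III, stood at 3394, 798 and 4226 against 11111, 39912 and 57007. mt-Nd1 (MT, 2751 to 3707), a membrane subunit of complex I, stood at 2755, 878 and 3676 against 9147, 28407 and 49002. For both, the groups did not overlap and the order of the libraries was that of mt-Co1.

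Fold changes ran from -3.68 ± 0.92 (log2 CD11c+ over CD11c- ± SE) for mt-Cytb to -2.98 ± 0.70 for mt-Nd3. None of the 13 passed the threshold of adjusted p 0.05 in edgeR's quasi-likelihood test, with adjusted p from 0.162 to 0.322. All 13 had an unadjusted p under 0.05, and DESeq2 called all 13. Of all genes tested, edgeR called 0% lower and 0.299% higher in CD11c+, with 409 lower at an unadjusted p under 0.05. DESeq2 called 1.04% lower and 2.56% higher. Without P5 CD11c+ replicate 2, edgeR called all 13 lower, with adjusted p from 0.0323 to 0.0448 and a median of -3.06, where 4.42% of 15841 genes were called lower and 5.06% higher. No gene of the 13 was lower by less than 2.72 log2 units in that fit. Fewer cells with many mitochondrial transcripts and fewer such transcripts per cell cannot be told apart in these bulk libraries.

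**Figure D1:**
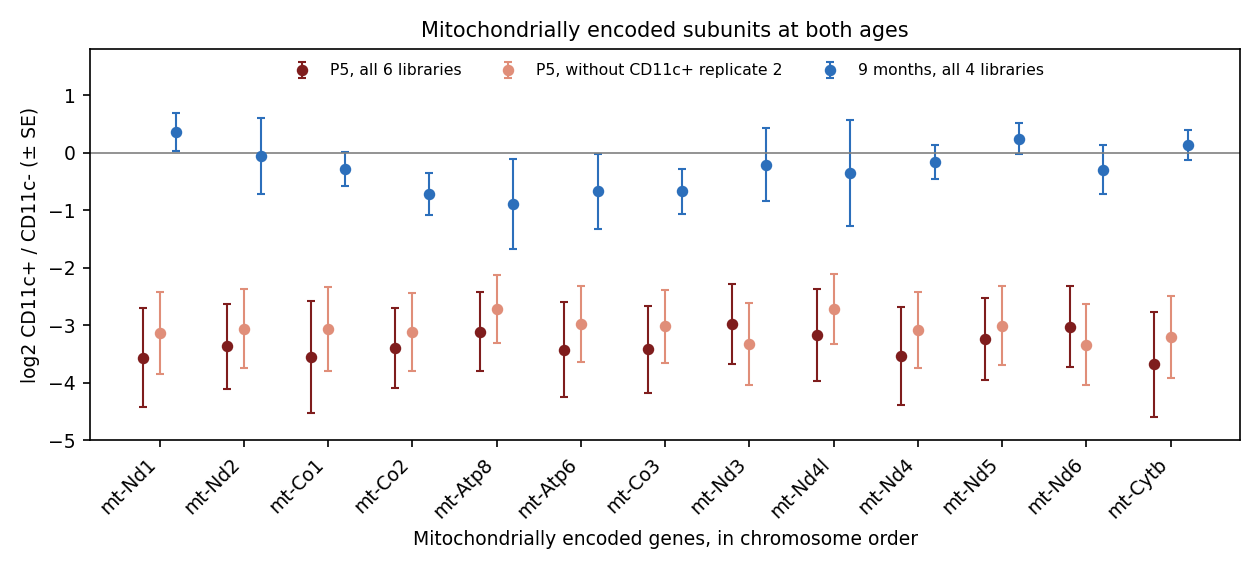
Log2 fold change (CD11c+ over CD11c-, vertical axis, bars ± SE) of the 13 mitochondrially encoded genes in chromosome order, at P5 with all 6 libraries, at P5 without CD11c+ replicate 2, and at 9 months. P5 values lie between -3.68 and -2.72 with or without that library, and 9-month values between -0.90 and 0.36.

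Summed over the 13 genes, mitochondrially encoded subunits made up 2.38%, 0.771% and 2.79% of counts in P5 CD11c+ libraries. In CD11c- libraries they made up 7.15%, 20.6% and 28.0%. The CD11c- libraries thus held more in every case and also spread more widely. The 80 nuclear genes together held 0.558%, 1.10% and 0.578% of the counts outside the mitochondrial chromosome in CD11c+ and 0.560%, 0.604% and 0.634% in CD11c- libraries. With replicate 2 set aside, the nuclear shares of the subsets overlapped, while the mitochondrial shares did not.

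Mitochondrial counts per nuclear count of the chain were 4.37, 0.709 and 4.97 in P5 CD11c+ and 13.8, 43.2 and 61.3 in CD11c- libraries. The same order held in each complex with both kinds of subunit, whether per count or per length. In TPM, transcript abundance after division by exon length, the complex I ratio was 7.59, 1.81 and 8.81 against 22.4, 72.5 and 99.8. The complex IV ratio was 7.12, 0.817 and 7.35 against 21.5, 61.2 and 89.7. For complex V, in which only mt-Atp6 and mt-Atp8 are mitochondrial, it was 0.640, 0.0467 and 0.779 against 1.82, 5.83 and 7.31. Levels of both genes against other genes are uncertain because of a chromosome 1 copy described below.

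**Figure D2:**
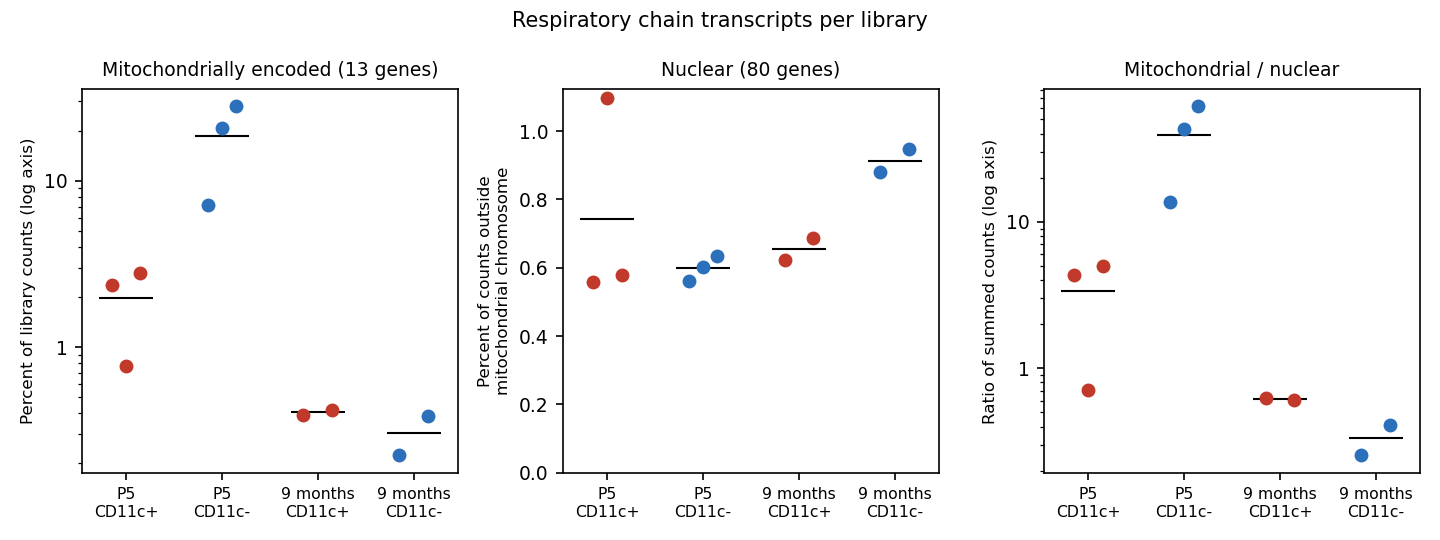
Each point is 1 library and each line a group mean, for the share of counts in mitochondrially encoded subunits (left, log axis), the share in nuclear subunits (middle, axis from 0) and the ratio of the summed counts (right, log axis). At P5 the ratio is 13.8 to 61.3 in CD11c- and at most 4.97 in CD11c+ libraries, and at 9 months 0.254 to 0.410 in CD11c- and 0.611 to 0.629 in CD11c+ libraries.

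The makeup of the mitochondrial RNA was alike in 5 of the 6 P5 libraries. mt-Co1 took 40.6% to 43.1% of the counts of the 13 genes and mt-Cytb 15.6% to 17.5%. mt-Nd6, the only subunit encoded on the opposite strand, took 2.44% to 3.10%. In P5 CD11c+ replicate 2 the shares were 23.4% for mt-Co1, 10.9% for mt-Cytb and 14.8% for mt-Nd6. Strand use in the counting is not given in the sources used here, so reads of mt-Nd6 and antisense RNA from that stretch cannot be separated.

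Markers of other cells also differed between the P5 subsets. The 18 border macrophage markers summed to 1.72% to 2.18% of counts in CD11c+ and 0.161% to 0.309% in CD11c- libraries, with 1 marker at 0 counts in 1 library. The 21 neutrophil markers summed to 0.0444% to 0.0619% against 0.120% to 0.399%, with 1 to 4 markers at 0 counts in each CD11c+ library. Their part in the mitochondrial result was not tested.

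Some of these values are uncertain because chromosome 1 holds a near-identical copy of part of the mitochondrial chromosome. Annotated pseudogenes on its minus strand between 24611535 and 24616197 match 7 of the genes. Over the aligned bases, the copies of mt-Co2, mt-Co3, mt-Atp6, mt-Nd4 and mt-Nd4l were identical to the gene, and those of mt-Nd3 and mt-Co1 differed at 1 base. The start of mt-Nd3 (chrM:9459-9538, plus strand) and of its copy (chr1:24613040-24613119, minus strand) is shown with the differing base in capitals. The start of mt-Co3 (chrM:8607-8686, plus strand) and of its copy (chr1:24613892-24613971, minus strand) is shown because nothing in it separates them. Sequences are from GENCODE M21 transcripts on GRCm38.
mt-Nd3: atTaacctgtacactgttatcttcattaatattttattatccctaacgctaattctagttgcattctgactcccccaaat
Gm28438: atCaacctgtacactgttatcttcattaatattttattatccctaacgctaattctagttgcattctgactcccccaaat
mt-Co3: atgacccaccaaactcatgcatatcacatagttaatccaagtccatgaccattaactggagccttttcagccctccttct
Gm28437: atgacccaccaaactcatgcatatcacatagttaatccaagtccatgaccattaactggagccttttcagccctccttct

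The copy took a median over libraries of 50.4% of the counts of the mt-Co3 pair, 51.7% for mt-Atp6 and 45.4% for mt-Co2. It took 36.2% for mt-Nd4l, 34.7% for mt-Nd3, 4.43% for mt-Nd4 and 1.05% for mt-Co1. The levels of the first 5 genes, and of mt-Atp8, which lies between mt-Co2 and mt-Atp6, are therefore not reliable against other genes. This bears on the low shares of mt-Co2 and mt-Co3, at most 1.57% each of the mitochondrial total against 23.1% to 43.1% for mt-Co1. In any library the copy took at most 64.3% of the counts of the mt-Co3 pair and 55.6% for mt-Co2. The cause of the gap to mt-Co1 was not tested. Adding the copy's counts to its genes was an alternative chosen after the data were seen. It left the 13 mitochondrial genes uncalled at P5, as in the main fit. It also left the calls of 28 named nuclear genes at 9 months, which receive none of these counts and could hardly change.

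The nuclear subunits showed no shift of this kind at P5. Their median log2 fold change was 0.06, equal to that of all genes tested, and 0 of 79 tested passed the threshold in edgeR. Only Atp5e, on the higher side, had an unadjusted p under 0.05, where 668 of 15410 genes were higher and 409 lower. DESeq2 called 0 nuclear subunits. Medians per complex lay between -0.01 and 0.08, and without CD11c+ replicate 2 the median over 80 genes was -0.06 with 0 called. Atp5o, the peripheral stalk subunit also called OSCP, was the only one higher in every CD11c+ library, at 63.1, 95.3 and 73.1 against 48.2, 57.7 and 56.9 TMM-scaled CPM. It had a fold change of 0.51 ± 0.24 (adjusted p 0.758). Another 7 were lower in every CD11c+ library, among them Cox5a, Cox6c and Atp5g2, where 8.68% of all genes were so placed in this direction and 8.39% in the other.

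The largest positive nuclear values at P5 rested on replicate 2. Atp5e, the epsilon subunit of the ATP synthase central stalk, stood at 51.4, 3267 and 65.7 TMM-scaled CPM in CD11c+ against 60.4, 75.3 and 81.6 in CD11c- libraries. Its fold change was 3.96 ± 1.62 with that library and -0.28 ± 0.18 without it. Ndufa2, an accessory subunit of complex I, stood at 33.7, 757 and 38.9 against 45.3, 51.6 and 58.2, and its fold change moved from 2.41 ± 1.21 to -0.48 ± 0.16. None of these passed the test. Of the 80 nuclear genes, 34 had their highest P5 level in this library and 32 their lowest.

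At 9 months most nuclear subunits were lower in CD11c+ than in CD11c- libraries, and no mitochondrially encoded one passed the test. Here and below, fell and rose mean lower and higher in CD11c+ than in CD11c- libraries of this age, not a change with age. Of 79 nuclear genes tested, 55 fell (69.6%), 1 rose and 23 were not called, where 18.2% of all 15740 genes tested fell and 14.8% rose. Their median log2 fold change was -1.17, against 0.02 for all genes. Both CD11c+ libraries were below both CD11c- libraries for 67 of the 79, where 33.8% of all genes were so placed, and above them for 5, where 36.1% were. The nuclear genes together held 0.624% and 0.686% of the counts outside the mitochondrial chromosome in CD11c+ and 0.881% and 0.946% in CD11c- libraries.

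Each group had 2 libraries, and the number of calls depended on which libraries were fitted together. In a fit of all 10 libraries 7 nuclear genes stayed lower (Atp5l, Cox5a, Cox6c, Cox7a2, Ndufa1, Ndufa4 and Ndufb7), where 4.52% of 19555 genes were called lower and 2.79% higher, and the median was -0.93. Sdha was not called there (0.94, adjusted p 0.220), nor were the other subunits given for this age as fallen.

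Markers of other cells also differed between the 9-month subsets, some lists lower and some higher in CD11c+ libraries. The 21 neutrophil markers summed to 0.235% to 0.337% of counts in CD11c+ and to 15.1% to 20.4% in CD11c- libraries, none was at 0 counts, and 20 of them fell. S100a8 was at 419 and 301 CPM against 26593 and 48020. The 14 monocyte markers summed to 0.0586% to 0.0598% against 0.525% to 0.538%, and 12 fell. The 18 border macrophage markers summed to 0.220% to 0.232% against 0.0585% to 0.0680%, and 17 rose. The 11 dendritic cell markers summed to 0.0281% to 0.0299% against 0.00489% to 0.00566%, and 7 rose. The 30 homeostatic microglia markers summed to 6.83% to 7.44% against 2.23% to 2.39%, and 28 rose. The part of these cells in the respiratory chain result was not tested. With libraries scaled to the homeostatic microglia genes, the median of all genes moved to -1.22 and that of the nuclear subunits to -2.41. The distance was -1.19 in both scalings. Rescaling libraries shifts all genes nearly alike, so this distance could hardly change and says nothing on the part of other cells. Under the homeostatic scaling 77 nuclear subunits were called lower and 0 higher, where 56.7% of all genes were lower and 0.699% higher.

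**Figure D3:**
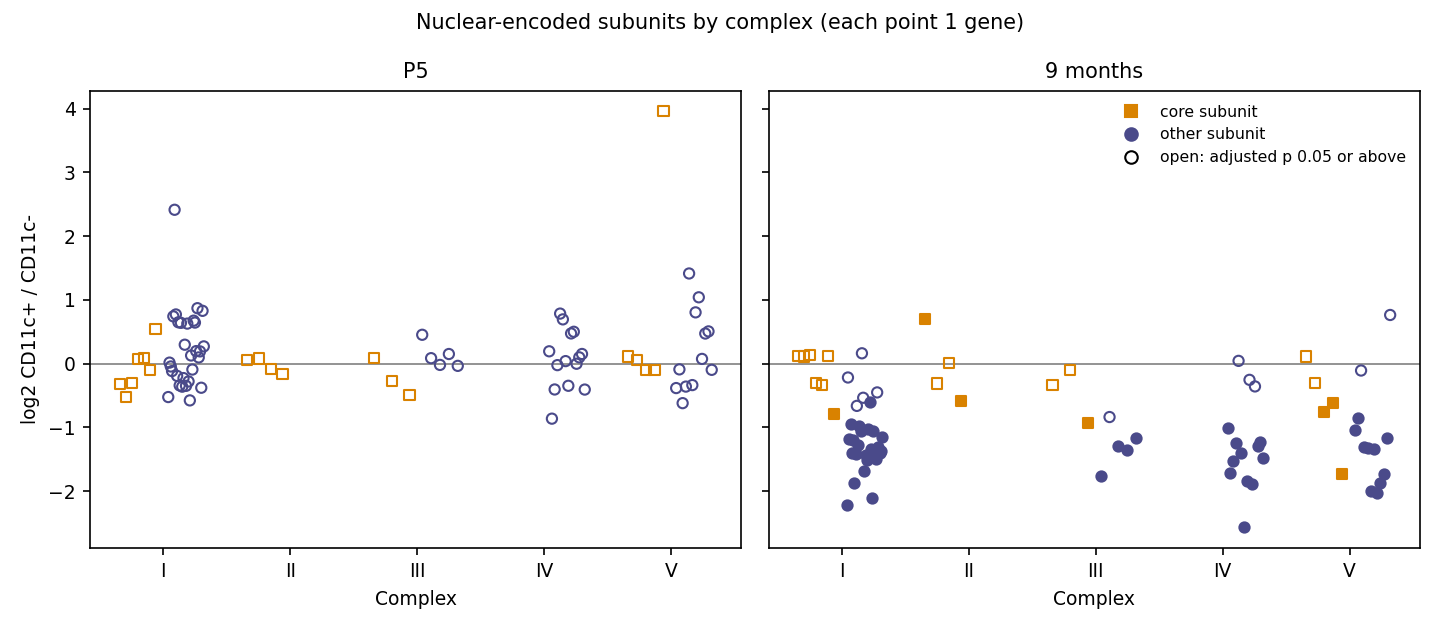
Log2 fold change (CD11c+ over CD11c-, vertical axis) of each nuclear subunit by complex at P5 and at 9 months, with core subunits as squares and the others as circles, filled where the edgeR adjusted p was under 0.05. At P5 no point is filled and the medians lie near 0, and at 9 months 55 filled points lie below 0 and 1, Sdha, above.

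In complex I, 25 of 36 nuclear subunits fell, with a median of -1.11. Ndufa1 (X, 37187588 to 37191163), a small membrane subunit needed for assembly of the complex, stood at 31.1 and 43.1 TMM-scaled CPM in CD11c+ and at 134.6 and 212.5 in CD11c- libraries. It fell by 2.23 ± 0.27 on the log2 scale (edgeR adjusted p 0.00136). Ndufb7 (chromosome 8, 83566671 to 83571626), an accessory subunit on the intermembrane side, stood at 40.1 and 37.4 against 154.6 and 179, and fell by 2.11 ± 0.17 (adjusted p 0.000207). In both genes each CD11c+ library was far below each CD11c- library. Ndufa3, another accessory subunit, fell by 1.88 ± 0.29 (adjusted p 0.00362).

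The 7 nuclear core subunits of complex I, which carry its flavin and iron-sulfur clusters, had other values than the 29 accessory ones. Only Ndufv2 of the 7 fell, by 0.80 ± 0.17 (adjusted p 0.0116), and their median was 0.11, where 24 of the 29 accessory subunits fell with a median of -1.28. Fold changes of Ndufs1, Ndufs3, Ndufs7, Ndufs8 and Ndufv1 lay between -0.34 and 0.14. This difference between core and accessory subunits is a description and was not tested.

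Complex II, which is also the succinate dehydrogenase of the tricarboxylic acid (TCA) cycle, was the only complex with a member that rose. Sdha (chromosome 13, 74322254 to 74350280), the flavoprotein that oxidises succinate, stood at 238.5 and 216.2 TMM-scaled CPM in CD11c+ and at 138.3 and 142.6 in CD11c- libraries. The groups did not overlap, and it rose by 0.70 ± 0.14 (adjusted p 0.0111). Scaled to the homeostatic microglia genes, its fold change was -0.56, above the median of all genes under that scaling.

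The other subunits of complex II went lower or stayed level. Sdhd, a membrane anchor with part of the quinone site, stood at 124.6 and 125.3 against 177.6 and 198.9 and fell by 0.59 ± 0.15 (adjusted p 0.0218). Its call was lost without CD11c+ replicate 1 (adjusted p 0.132), CD11c+ replicate 2 (0.0966) or CD11c- replicate 2 (0.0794). Sdhb, the iron-sulfur subunit, stood at 135.6 and 134.4 against 160.8 and 174.3, a fold change of -0.31 ± 0.14 (adjusted p 0.144). Sdhc, the other anchor, stood at 70.8 and 57.5 against 64.9 and 62.1, with overlapping groups and a fold change of 0.02 ± 0.18 (adjusted p 0.959). Complex II made up 10.3% and 8.99% of nuclear respiratory chain counts in CD11c+ and 5.75% and 5.06% in CD11c- libraries.

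In complex III, 5 of 8 nuclear subunits fell, with a median of -1.05. Uqcr10, a small subunit of the cytochrome bc1 complex, stood at 33.1 and 37.5 TMM-scaled CPM against 97.5 and 141.8, and fell by 1.76 ± 0.22 (adjusted p 0.00154). Uqcrh, the hinge protein beside cytochrome c1, fell by 1.35 ± 0.21 (adjusted p 0.00359), and Uqcrb by 1.30 ± 0.35 (adjusted p 0.0284). Without CD11c- replicate 2, Uqcrb was at -0.63 and was not called (adjusted p 0.113). For all 8 both CD11c+ libraries were below both CD11c- libraries. The core proteins Uqcrc1 and Uqcrc2 did not pass, at -0.33 ± 0.16 and -0.10 ± 0.15, and the Rieske protein Uqcrfs1 fell by 0.93 ± 0.18 (adjusted p 0.00877).

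In complex IV, whose catalytic core is entirely mitochondrial, 11 of 14 tested nuclear subunits fell, with a median of -1.35. Cox7a2 (chromosome 9, 79755361 to 79759878), a small membrane subunit, stood at 36.2 and 41.9 TMM-scaled CPM against 119.6 and 168.7, and fell by 1.88 ± 0.22 (adjusted p 0.00102). Cox6c stood at 44.8 and 57.3 against 146 and 219, and fell by 1.84 ± 0.24 (adjusted p 0.00183). The largest change of any nuclear subunit at this age was that of a little expressed one. Cox6b2, the testis isoform of subunit VIb, stood at 1.43 and 1.37 against 6.83 and 9.81, and fell by 2.57 ± 0.39 (adjusted p 0.00344).

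In complex V, 13 of 17 nuclear subunits fell, with a median of -1.17. Atp5l (chromosome 9, 44912557 to 44920742), subunit g of the membrane part, stood at 27.2 and 31.1 TMM-scaled CPM against 102.4 and 112.5, and fell by 1.88 ± 0.17 (adjusted p 0.000406). Atp5k, subunit e, stood at 11.9 and 12.2 against 40.9 and 58.2, and fell by 2.03 ± 0.24 (adjusted p 0.00107). Atp5j, coupling factor 6 of the peripheral stalk, fell by 2.0 ± 0.28 (adjusted p 0.00232). The catalytic head subunits Atp5a1 and Atp5b were at 0.11 ± 0.16 and -0.31 ± 0.13, and neither passed (adjusted p 0.632 and 0.127). Atp5s, a coupling factor taken in by its name, had the highest fold change of the nuclear genes, 0.76, and did not pass (adjusted p 0.0741).

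**Figure D4:**
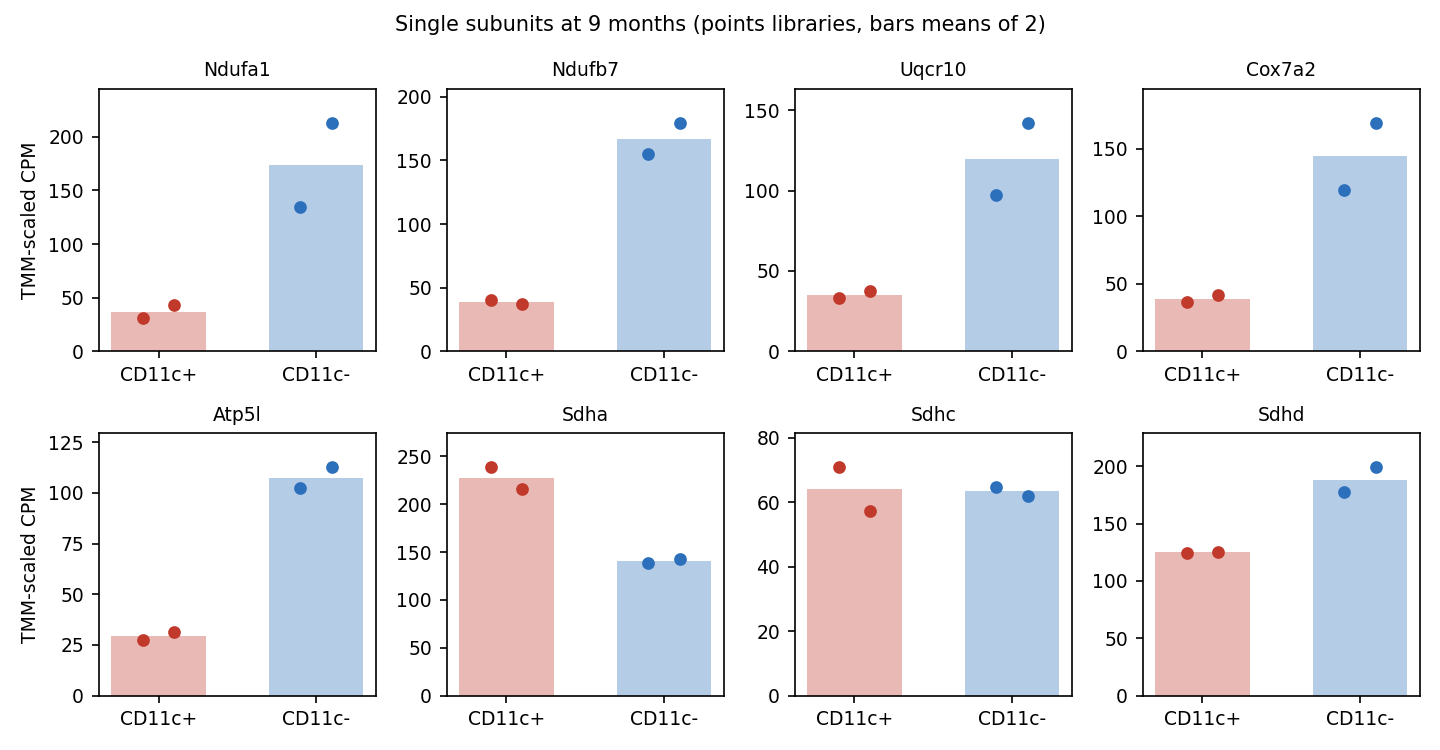
TMM-scaled CPM (vertical axes from 0) of 8 nuclear subunits in the 9-month libraries, with points for single libraries and bars for means of 2. Ndufa1, Ndufb7, Uqcr10, Cox7a2, Atp5l and Sdhd lie lower in both CD11c+ libraries, Sdha lies higher, and Sdhc overlaps.

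Across complexes, 6 of the 19 nuclear core subunits fell (31.6%), with a median of -0.31, and 49 of the 60 other subunits tested (81.7%), with a median of -1.30. Core here means the 7 conserved subunits of complex I, all of complex II, the 3 largest or catalytic nuclear proteins of complex III and the 5 subunits of the ATP synthase catalytic head and central stalk. Their share of nuclear respiratory chain counts was 49.5% and 46.0% in CD11c+ against 34.8% and 28.7% in CD11c- libraries. At P5, by comparison, it was 43.3%, 44.2% and 40.3% against 38.5%, 37.8% and 36.2%. The 44.2% of CD11c+ replicate 2 rested largely on Atp5e, a core subunit of ATP synthase at 3430 CPM in that library. There the core subunits of complex V held 0.406% of counts, against 0.115% and 0.110% in CD11c+ replicates 1 and 3. The P5 median fold changes were -0.09 for core and 0.09 for other subunits with all libraries, and 0.20 and -0.09 without CD11c+ replicate 2, so that this library turned their order. In neither fit did edgeR call any of them.

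Exon length moved with both class and fold change. The median deposited exon length was 1363 bases for the 55 that fell and 2101 for the 23 not called. Across the 79 nuclear genes length and the 9-month fold change had r = 0.30 (Spearman 0.31), as a description across genes of the same 4 libraries, which are not independent. Among the 19 core genes r was 0.51, among the 60 others 0.06, and among 12438 tested protein-coding genes 0.14.

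Shorter protein-coding genes in general had lower fold changes at 9 months, and the median of the respiratory chain genes was below theirs in each length range. Under 1000 bases, 18 of 23 members fell (78.3%), against 44.4% of 444 protein-coding genes, with medians of -1.37 and -0.84. From 1000 to 2000 bases, 22 of 28 fell (78.6%), against 30.8% of 1586, with medians of -1.02 and -0.25. From 2000 to 4000 bases, 9 of 19 fell (47.4%), against 19.5% of 4020, with medians of -0.31 and 0.15. From 4000 bases on, 6 of 9 fell, against 16.2% of 6375, with medians of -0.85 and 0.18. The part of exon length in the result was not tested.

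**Figure D5:**
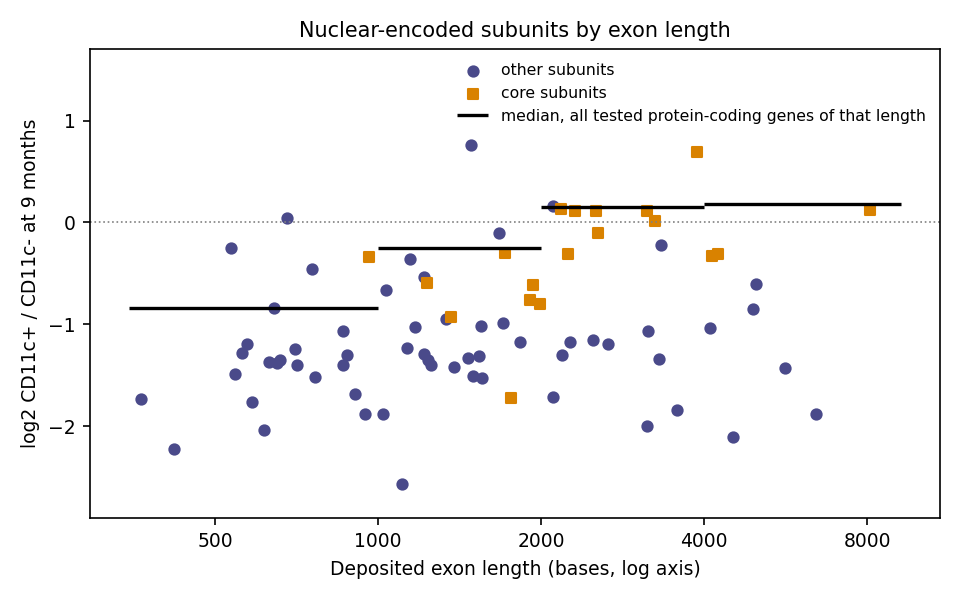
Log2 fold change at 9 months (vertical axis) against deposited exon length (bases, log axis) for the nuclear subunits, core as squares and others as circles, with black lines for the median of all tested protein-coding genes in each length range. In each range the median of the members lies below the line, and the core subunits have a median of -0.31 over all lengths.

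The 13 mitochondrially encoded subunits had a median of -0.28 at 9 months, and edgeR and DESeq2 each called 0, with 0 at an unadjusted p under 0.05. Adjusted p ran from 0.185 for mt-Co2 to 0.957 for mt-Nd2. mt-Co1 stood at 1107 and 838 TMM-scaled CPM in CD11c+ against 824 and 1535 in CD11c- libraries. mt-Cytb stood at 1106 and 966 against 682 and 1198, and mt-Nd1 at 684 and 816 against 369 and 803. The CD11c- libraries lay apart from each other, and none of the 13 separated the groups. These genes rested on single libraries more than the nuclear ones. With 1 library left out at a time their median ran from -0.83 to 0.53, and that of the nuclear genes from -1.28 to -0.87. Scaled to the homeostatic microglia genes, 8 were called lower, a scaling under which 56.7% of all genes were, and the median of -1.51 lay near the -1.22 of all genes.

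Mitochondrial counts per nuclear count of the chain were 0.629 and 0.611 in 9-month CD11c+ and 0.254 and 0.410 in CD11c- libraries. The ratio was thus higher in CD11c+ libraries at 9 months and lower at P5, with no overlap at either age. For complex I the TPM ratio at 9 months was 0.849 and 1.07 against 0.283 and 0.482. For complex IV it was 1.03 and 0.703 against 0.333 and 0.492. For complex V it was 0.0396 and 0.0980 against 0.0262 and 0.0882, with overlapping groups. This last ratio rests on mt-Atp6 and mt-Atp8, whose levels are uncertain against other genes. The share of counts in the 13 genes was 0.391% and 0.418% in CD11c+ and 0.223% and 0.387% in CD11c- libraries, against 0.771% to 28.0% over the P5 libraries. Ages are set side by side without a test.

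Whether the contrast of the subsets differed between ages was tested as an interaction over all 10 libraries, into which an effect of the kit on 1 subset would also enter. No respiratory chain gene passed in edgeR, where the CD11c+ over CD11c- contrast was higher at 9 months than at P5 for 0.839% of 19555 genes. It was lower for 1.34%. For the interaction, higher and lower refer to this contrast and not to the level of a gene at 9 months. At an unadjusted p under 0.05, 21 nuclear genes were lower, 1 was higher and 12 mitochondrial genes were higher. Of all 19555 genes, 1498 were lower and 2253 higher at that unadjusted p. DESeq2 called 31 nuclear genes lower and 9 mitochondrial genes higher, where it called 8.46% of all genes lower and 3.85% higher. With homeostatic scaling edgeR called 74 nuclear genes lower, where 32.8% of all genes were lower and 0.113% higher. The median interaction was -0.72 for the nuclear and 3.25 for the mitochondrial genes, against 0.18 for all genes. The smallest adjusted p of a nuclear gene was 0.0684, for Cox7a2 at -1.91 ± 0.47, followed by Ndufb7 at -2.28 ± 0.60 (adjusted p 0.0814).

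In the interaction without P5 CD11c+ replicate 2, edgeR called 37 of 80 nuclear genes lower (46.3%), where 10.3% of 18348 genes were. It called 6 of 13 mitochondrial genes higher (mt-Co1, mt-Cytb, mt-Nd1, mt-Nd4, mt-Nd5 and mt-Nd6), where 8.76% were. Ndufb7 was then at -1.97 ± 0.26 (adjusted p 0.000899) and Cox7a2 at -1.94 ± 0.32 (adjusted p 0.00271). Among mitochondrial genes, mt-Cytb was at 3.43 ± 0.82 (adjusted p 0.0165) and mt-Nd1 at 3.57 ± 0.88 (adjusted p 0.0184). By complex, 16 of 36 nuclear genes of complex I were lower, 0 of 4 of complex II, 1 of 8 of complex III, 10 of 15 of complex IV and 10 of 17 of complex V.

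Where a subunit has a general and a tissue-restricted isoform, the general form had the higher TPM in all 4 groups. Cox4i1, the general form of subunit IV, had 369 to 521 TPM as group means, and Cox4i2, the lung and hypoxia form, 0.0716 to 2.79. Cox6a1 had 315 to 609 and the muscle form Cox6a2 1.64 to 17.9. Cox6b1 had 184 to 585 and Cox6b2 3.83 to 11.4. Cox7a2 had 76.6 to 233 and Cox7a2l, a factor in supercomplex assembly, 91.4 to 384, against 1.48 to 9.39 for the muscle form Cox7a1. These tissue-restricted forms stayed far below the general ones at each age.

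The 3 genes for the same c-ring subunit of ATP synthase had different fold changes between the subsets, which were not tested against each other. At 9 months Atp5g3 stood at 70.9 and 71.8 TMM-scaled CPM in CD11c+ against 159 and 193 in CD11c- libraries, and fell by 1.30 ± 0.16 (adjusted p 0.00154). Atp5g1 stood at 54.4 and 53.5 against 88.3 and 106, and fell by 0.85 ± 0.17 (adjusted p 0.00979). Atp5g2 stood at 35.1 and 33.6 against 36.9 and 37.2, a fold change of -0.11 ± 0.18 (adjusted p 0.674). In TPM the order of group means in 9-month CD11c- libraries was Atp5g3 with 124 ± 5.33 (SD, n = 2), Atp5g2 with 34.4 ± 5.95 and Atp5g1 with 30.5 ± 1.47, the last pair within their spread.

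Promoter sequences, 250 bases before to 50 after the gene start in RefSeq on GRCm38.p6, were found for 66 of the 80 nuclear genes. They were searched on both strands for motifs of factors known to act on respiratory genes. The NRF1 motif GCGCATGC was in 15.2% of them, against 3.94% of 17492 protein-coding genes. The ETS motif CCGGAAG, bound by GABPA, was in 24.2% against 12.9%, the YY1 motif ATGGCGG in 15.2% against 6.05%, and the TATA box TATAAA in 7.58% against 14.8%. Among the 48 with a promoter that fell at 9 months, the NRF1, ETS and YY1 shares were 12.5%, 25% and 12.5%, and among the 17 not called they were 23.5% each. The counts are small, and these shares are descriptions of letters, not of binding.

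The promoters of all 5 genes that hold both an NRF1 and an ETS match are shown with the matches in capitals, 3 of genes that fell and 2 of genes not called. Where letters read GCGCATGCGC the NRF1 motif matches on both strands and overlaps itself. They are those of Atp5k (chr5:108434350-108434649, minus strand), Atp5l (chr9:44920693-44920992, minus strand), Cox6a1 (chr5:115348909-115349208, minus strand), Sdhb (chr4:140961021-140961320, plus strand) and Uqcr11 (chr10:80406772-80407071, minus strand).
Atp5k: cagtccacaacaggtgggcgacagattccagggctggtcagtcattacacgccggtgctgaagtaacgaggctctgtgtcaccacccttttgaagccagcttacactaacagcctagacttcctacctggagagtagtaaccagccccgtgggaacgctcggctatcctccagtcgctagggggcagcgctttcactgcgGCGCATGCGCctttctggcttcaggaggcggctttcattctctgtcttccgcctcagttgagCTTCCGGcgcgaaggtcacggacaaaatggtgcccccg
Atp5l: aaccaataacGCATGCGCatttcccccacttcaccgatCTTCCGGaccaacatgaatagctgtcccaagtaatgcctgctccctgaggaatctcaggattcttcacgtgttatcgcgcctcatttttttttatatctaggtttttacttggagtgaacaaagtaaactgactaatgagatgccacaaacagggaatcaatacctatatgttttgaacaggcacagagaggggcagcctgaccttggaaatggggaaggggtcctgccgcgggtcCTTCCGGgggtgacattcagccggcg
Cox6a1: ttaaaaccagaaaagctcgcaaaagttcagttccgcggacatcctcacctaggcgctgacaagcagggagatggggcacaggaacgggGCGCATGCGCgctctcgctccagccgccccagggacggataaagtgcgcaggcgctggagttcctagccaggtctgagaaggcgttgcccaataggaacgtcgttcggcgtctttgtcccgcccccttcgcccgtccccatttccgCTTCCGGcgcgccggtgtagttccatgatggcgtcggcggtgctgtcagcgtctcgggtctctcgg
Sdhb: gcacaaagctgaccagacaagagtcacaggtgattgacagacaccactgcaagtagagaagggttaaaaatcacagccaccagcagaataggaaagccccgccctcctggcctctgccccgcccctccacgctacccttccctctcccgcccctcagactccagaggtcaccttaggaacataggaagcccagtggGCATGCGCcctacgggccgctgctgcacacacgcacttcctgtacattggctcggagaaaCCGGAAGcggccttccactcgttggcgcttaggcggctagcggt
Uqcr11: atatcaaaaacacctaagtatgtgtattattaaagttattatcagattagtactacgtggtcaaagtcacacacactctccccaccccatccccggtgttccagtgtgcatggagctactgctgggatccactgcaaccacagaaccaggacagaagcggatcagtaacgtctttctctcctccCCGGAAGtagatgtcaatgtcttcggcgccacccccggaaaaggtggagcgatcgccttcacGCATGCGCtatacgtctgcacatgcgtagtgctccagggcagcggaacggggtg
Cox6a1, the general form of subunit VIa, stood at 84.6 and 99.7 TMM-scaled CPM in CD11c+ and 197 and 239 in CD11c- libraries at 9 months, and fell by 1.24 ± 0.17 (adjusted p 0.00236). With the same pair of motifs, Sdhb did not pass, nor did Uqcr11, a small subunit of complex III, at -0.84 ± 0.32 (adjusted p 0.0847).

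Among genes that build or serve the chain, some were higher and some lower in CD11c+ than in CD11c- libraries at 9 months. Their shares are to be read against the 18.2% of all genes that fell and the 14.8% that rose. Of 45 tested assembly factors, 7 fell (15.6%, close to all genes) and 2 rose (4.44%), with a median of 0.08. Those that fell included Pet100, a chaperone of complex IV, at -2.32 ± 0.26 (adjusted p 0.000857), and Cox17, the copper carrier to complex IV, at -1.72 ± 0.26 (adjusted p 0.00321). Of 78 mitochondrial ribosomal proteins, 19 fell (24.4%) and 3 rose (3.85%), with a median of -0.35. Mrpl33 fell by 3.02 ± 0.22 (adjusted p 0.000139) and Mrps21 by 1.62 ± 0.20 (adjusted p 0.00135). Of 23 import genes 7 fell (30.4%) and 1 rose (4.35%), among them Tomm22, a receptor of the outer membrane, at -1.18 ± 0.17 (adjusted p 0.00238).

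Of 30 tested genes that act on the mitochondrial chromosome, its transcription or its RNA, 8 rose (26.7%) and 3 fell (10%), with a median of 0.48. The DNA exonuclease Mgme1 rose by 0.97 ± 0.17 (adjusted p 0.0065), and Hsd17b10, part of mitochondrial RNase P, fell by 1.20 ± 0.19 (adjusted p 0.00355). Of 14 biogenesis regulators, Pprc1, a PGC-1-related coactivator, rose by 0.92 ± 0.18 (adjusted p 0.00958), Yy1 fell by 1.34 ± 0.35 (adjusted p 0.0259), and 12 were not called.

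Of 21 TCA cycle genes, 5 rose (23.8%) and 2 fell (9.52%), with a median of 0.09. Idh2 rose by 1.11 ± 0.15 (adjusted p 0.00224) and Mdh2 fell by 1.17 ± 0.16 (adjusted p 0.00211). Of 16 electron carriers and subunits outside the name rule, 2 rose (12.5%) and 4 fell (25%), with the coenzyme Q factor Coq8a at 1.64 ± 0.25 (adjusted p 0.00329) and the ATP synthase subunit Usmg5 at -1.64 ± 0.26 (adjusted p 0.00358). Of 10 antioxidant genes, 5 fell (50%) and 2 rose (20%), with a median of -0.69. Prdx5, a mitochondrial peroxiredoxin, had 126 ± 16.3 against 1362 ± 109 TMM-scaled CPM (SD, n = 2) and fell by 3.44 ± 0.17 (edgeR adjusted p 3.93e-05).

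At P5, 0 of 237 tested genes of these lists passed in edgeR, with 1 higher and 2 lower at an unadjusted p under 0.05. Of all 15410 genes, 668 were higher and 409 lower at that unadjusted p. DESeq2 called 0 genes of these lists. Without CD11c+ replicate 2, edgeR called 2 of 238 higher, where 5.06% of all genes were: the TCA cycle genes Fh1 (0.96, adjusted p 0.00913) and Idh1 (0.64, adjusted p 0.0405). In the interaction 3 of 240 passed, 0.417% higher and 0.833% lower, where 0.839% and 1.34% of all genes were. The log2 CD11c+ over CD11c- contrast of Suclg2 was higher at 9 months than at P5 by 2.17 ± 0.42 (adjusted p 0.0342). The contrasts of Prdx5, at -2.70 ± 0.52 (adjusted p 0.0337), and Glrx5, at -3.89 ± 0.71 (adjusted p 0.0299), were lower. Suclg2 encodes a subunit of succinyl-CoA synthetase, and Glrx5 a glutaredoxin of iron-sulfur cluster assembly. DESeq2 called 8 higher and 28 lower, and edgeR without P5 CD11c+ replicate 2 called 14 of 238 higher (5.88%) and 29 lower (12.2%), where 8.76% and 10.3% of all genes were.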

How the data were processed

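The authors deposited raw counts of reads per gene and library, as whole numbers. Trimmomatic 0.36, STAR 2.5.2b and Subread 1.5.2 had been used, per the submitters' processing notes. The build, strand setting and treatment of multiply mapped reads are not given in the sources used here. Symbols came from GENCODE M21 (GRCm38), which held 48970 of 49315 identifiers, 44772 with the same start and end. Coordinates are those of the deposited tables. No column was left unused (0 columns).

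The libraries of each age were fitted apart from the other age, with edgeR 4.0.16 in R 4.3.3 (filterByExpr, TMM, quasi-likelihood F-test), and the interaction on all 10. Adjusted p-values are Benjamini-Hochberg over all genes tested, with a threshold of 0.05. Alternatives were DESeq2 1.42.0, no filter, other scalings, a fit of all libraries, a replicate block and leaving out each library. SE is the log2 fold change over the square root of F. Fits were also run on counts simulated with the same dispersion for every gene and no outlier library. That run cannot show how the fits treat P5 CD11c+ replicate 2. TPM used the exon length in the deposited tables. Homeostatic scaling sets the 30 homeostatic microglia genes equal. Replicates differed by more than sampling noise.

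Members, gene lists and tests were chosen with earlier results of these data known. Genes named were all mitochondrial and Sdh genes, the isoform sets, per test and complex up to 3 with the largest change each way (or the 2 smallest p), the highest TPM, and up to 2 per pathway list. Others named, such as the core subunits of complex I, were chosen after their values were seen. Values of some single genes are not reported here.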

Additional observations from a re-analysis of the deposited data

How the results depend on the processing

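Nuclear members, P5: the median log2 fold change was 0.06, and -0.068 with no filter, 0.53 with homeostatic scaling (all genes 0.57), -0.14 in the fit of all 10 libraries and -0.089 to 0.066 with 1 library left out. Nuclear members, 9 months: homeostatic scaling gave a median of -2.41 with 0 higher and 77 lower, and turned Sdha from 0.70 to -0.56. The fit of all 10 libraries gave -0.93 with 0 higher and 7 lower, and 21 of 28 named genes lost their call there. Leaving out 1 library gave medians of -1.28 to -0.87. Mitochondrial members, P5: 0 lower became 13 with DESeq2, 2 in the fit of all 10 libraries and 0 to 13 with 1 library left out, where the median ran from -3.83 to -2.86. Mitochondrial members, 9 months: no filter gave 1 lower (mt-Co3), homeostatic scaling 8 lower with a median of -1.51, and leaving out 1 library -0.83 to 0.53, with 0 to 4 lower and 0 to 2 higher. Interaction, nuclear: DESeq2 gave 31 lower and a median of -1.20, no filter 1 lower (Atp5e), homeostatic scaling 74 lower and -2.97, and leaving out 1 library 0 to 37 lower and -1.12 to -0.48. Interaction, mitochondrial: DESeq2 gave 9 higher, no filter 2 higher (mt-Nd3 and mt-Nd4l), homeostatic scaling a median of 1.28, and leaving out 1 library 0 to 6 higher and 2.62 to 4.12. The cause of these changes was not tested. Shares of all genes called are not given for fits with no filter or for P5 in the fit of all 10 libraries. Nor are they given for fits with 1 library left out, other than P5 CD11c+ replicate 2. Those counts cannot be read against all genes. The highest counts with 1 library left out at P5 and in the interaction were those without P5 CD11c+ replicate 2.

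The replicate numbers did not show a pairing of the libraries. After removal of group means, same-numbered libraries correlated at 0.464, 0.108 and -0.407 at P5 and at 0.078 at 9 months. With 2 libraries per group the 9-month values can differ only in sign, and so few libraries cannot exclude pairing. With the replicate block, 57 nuclear members were lower and 1 higher at 9 months (median -1.17), and no member passed at P5 or in the interaction (0 in each). Shares of all genes called under this block are not given either.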
